A study of Mus musculus with 8 samples.

Results

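The regions described here are the peaks around Sp8 and Sp9, taken from a chromatin immunoprecipitation sequencing (ChIP-seq) experiment on the transcription factor OTX2. A peak was a member when its centre lay within 300 kb of the position set for either gene, chromosome 12 at 120085000 for Sp8 and chromosome 2 at 73107000 for Sp9 (mm9). Of 26317 peaks in the 8 deposited lists, 28 met this rule, and 26 of them came from OTX2 libraries. Tissue was the embryonic mouse subpallium, comprising the septum and both ganglionic eminences, the medial (MGE) and the lateral (LGE), from wildtype CD-1 embryos at E12.5. Every group shared this strain, genotype and stage, and no group carried a mutation or a treatment. The groups were 3 libraries precipitated with an antibody against OTX2, 3 libraries of input chromatin without antibody and 2 libraries precipitated with normal goat IgG. The third experiment had no IgG library. Each sample pooled tissue of several embryos, so binding in few cells and weak binding in many cannot be told apart. The labels call the 3 OTX2 experiments independent, without naming litters, so spread between libraries may be partly technical.

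OTX2 is a homeodomain factor of the anterior neural tube that binds a bicoid-class DNA word, and the study asked how it acts on regional patterning of the MGE and on the identity of the septum. Sp8 and Sp9 are closely related C2H2 zinc finger transcription factors of the Sp family. In the mouse forebrain Sp8 is known for its part in rostral cortical patterning and in olfactory bulb interneurons born in the dorsal LGE, and Sp9 for its part in striatopallidal projection neurons and cortical interneurons. In the limb both act in the apical ectodermal ridge upstream of Fgf8, a signal that also patterns the rostral telencephalon.

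The proximal promoters of both genes are shown first, since replicate 3 had 4 peaks close to each gene position. Each window holds 250 bases before and 50 bases after an annotated start site, from RefSeq in build GRCm38.p6, on the plus strand for both genes, and both genes had an entry. The peaks are in mm9, and coordinates were not converted, so whether any peak lies in a window shown was not tested. Sp8 has 3 windows (chr12:118846079-118846378, chr12:118846983-118847282 and chr12:118847309-118847608) and Sp9 has 1 (chr2:73271676-73271975). Capitals mark matches on either strand to 3 words, which were TAATCC (the bicoid-class word), TAATTA (a general homeodomain word) and GGGCGG (the GC box bound by Sp factors).
Sp8 window 1: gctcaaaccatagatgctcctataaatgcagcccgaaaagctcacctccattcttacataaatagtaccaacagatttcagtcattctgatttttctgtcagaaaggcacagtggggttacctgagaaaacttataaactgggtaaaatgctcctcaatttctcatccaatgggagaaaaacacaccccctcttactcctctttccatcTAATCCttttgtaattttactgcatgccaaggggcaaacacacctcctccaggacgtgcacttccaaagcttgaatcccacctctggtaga
Sp8 window 2: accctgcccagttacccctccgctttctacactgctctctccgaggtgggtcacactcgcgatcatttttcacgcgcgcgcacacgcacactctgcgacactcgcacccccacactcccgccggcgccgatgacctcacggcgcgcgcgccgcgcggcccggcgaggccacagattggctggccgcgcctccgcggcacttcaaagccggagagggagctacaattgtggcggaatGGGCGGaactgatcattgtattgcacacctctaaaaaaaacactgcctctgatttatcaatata
Sp8 window 3: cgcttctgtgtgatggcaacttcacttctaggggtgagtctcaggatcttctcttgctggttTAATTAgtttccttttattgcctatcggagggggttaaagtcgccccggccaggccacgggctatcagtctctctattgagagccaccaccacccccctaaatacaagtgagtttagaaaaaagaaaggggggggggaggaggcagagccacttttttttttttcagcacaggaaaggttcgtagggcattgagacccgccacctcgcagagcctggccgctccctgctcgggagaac
Sp9: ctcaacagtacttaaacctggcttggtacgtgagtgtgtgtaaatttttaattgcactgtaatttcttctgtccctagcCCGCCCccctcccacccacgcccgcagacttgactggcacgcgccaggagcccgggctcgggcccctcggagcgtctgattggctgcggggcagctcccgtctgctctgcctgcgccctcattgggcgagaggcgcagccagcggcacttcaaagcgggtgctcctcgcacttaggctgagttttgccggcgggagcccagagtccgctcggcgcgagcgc

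Each of the 4 windows held 1 match. The most upstream Sp8 window held TAATCC, starting 41 bases before the start site, and no other Sp8 or Sp9 window held it. TAATCC or its reverse complement occurred in 7.06% of all 32851 promoter windows of the table. The second Sp8 window held GGGCGG 14 bases before its start site, and the Sp9 window held the reverse complement CCGCCC 171 bases before the start site. GGGCGG occurred in 35.7% of all windows. The third Sp8 window held TAATTA 188 bases before its start site, a word found in 5.29% of all windows. The words do not overlap one another in these windows, and a match describes letters, not binding. Window 1 of Sp8 was 43.0% G and C, against 61.0% in window 2, 53.0% in window 3, 63.7% in the Sp9 window and a median of 52.7% over all windows.

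The lists gave no read depth, peak height or p-value, and each peak carried its rank in its own list. OTX2 lists held 1848, 1298 and 22325 peaks in replicates 1, 2 and 3, against 138 to 235 in input and 149 and 182 in IgG lists. The third experiment stood apart from the others. Its OTX2 list was the longest by far, its OTX2 peaks were wider (median 827 bp, against 191 and 182 bp), and the track names of its lists carry a tag with the word score that the other 6 lists lack. The meaning of the tag is not stated, and the settings of peak calling may differ in that experiment, in which case its counts, widths, ranks and rates are not directly comparable with those of replicates 1 and 2. Counts are therefore given with and without it.

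Around Sp8, OTX2 replicates 1, 2 and 3 held 1, 0 and 13 peaks. Input replicates 1, 2 and 3 held 0, 0 and 1, and both IgG libraries held 0. Replicate 3 was the high library, while replicates 1 and 2 lay in the range of the controls. The mean was 4.67 ± 7.23 peaks (SD, n = 3) in OTX2 and 0.333 ± 0.577 (SD, n = 3) in input libraries. The difference of 4.33 peaks did not pass an exact two-sided permutation test over libraries (p = 0.70, where 3 against 3 libraries allow no p under 0.10), and without the third experiment it was 0.500.

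Around Sp9, OTX2 replicates 1, 2 and 3 held 0, 0 and 12 peaks. Input replicates 1, 2 and 3 held 1, 0 and 0, and both IgG libraries held 0. Every OTX2 peak here came from replicate 3, as did 13 of the 14 at Sp8, and replicate 1 had fewer peaks than its input. The mean was 4.0 ± 6.93 peaks (SD, n = 3) in OTX2 and 0.333 ± 0.577 (SD, n = 3) in input libraries. The difference of 3.67 did not pass the exact two-sided permutation test (p = 1.00). Because several libraries were tied at 0 peaks, the smallest p possible here was higher than at Sp8. Without the third experiment the difference was -0.500, so its direction rested on replicate 3.

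**Figure D1:**
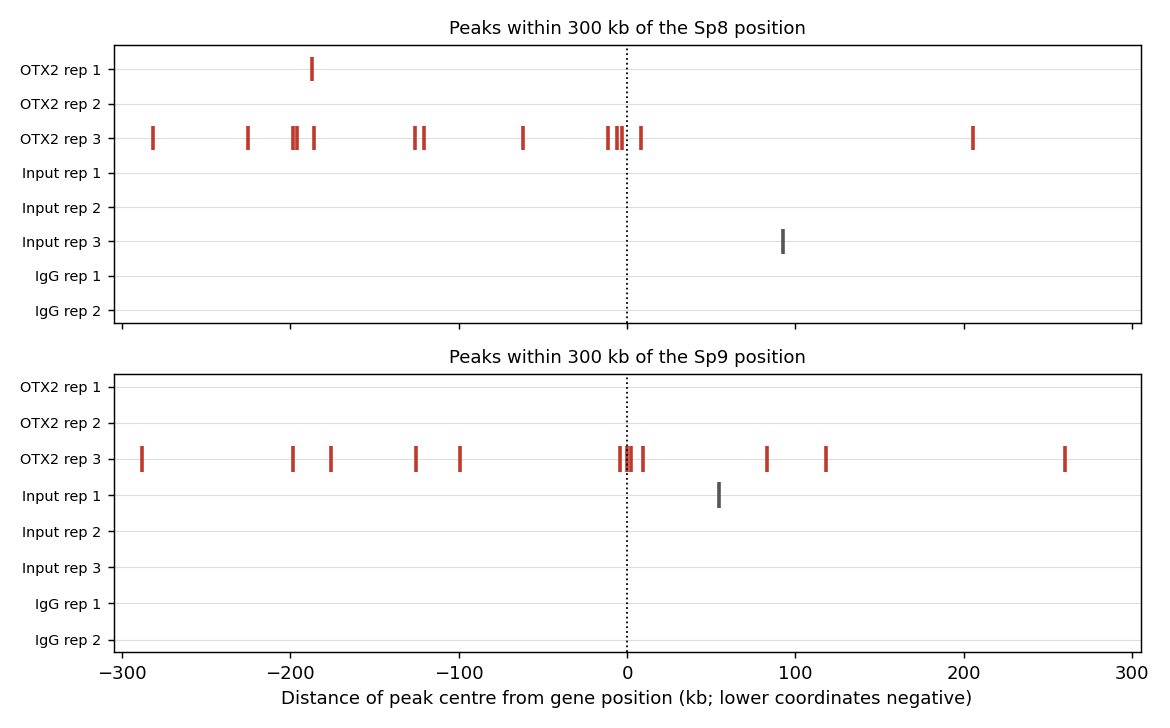
Peaks of the 8 libraries within 300 kb of the Sp8 position (upper) and the Sp9 position (lower). Each tick is the centre of 1 peak, placed by its distance in kb from the gene position (dotted line), with lower coordinates to the left; replicate 3 of OTX2 holds 13 and 12 ticks and no other library more than 1.

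The peak numbers of the libraries were also set against the length of their lists. Sp8 took 0.541 per 1000 peaks of replicate 1 (exact Clopper-Pearson 95% interval 0.0137 to 3.01) and 0.582 per 1000 peaks of replicate 3 (0.310 to 0.996). For a count of 0, the limit given is 3 peaks divided by the list length, not the Clopper-Pearson interval. By this limit, the 0 of 1298 peaks in replicate 2 allow up to 2.31 per 1000, which is above the rate of replicate 3. Sp9 took 0.538 per 1000 peaks of replicate 3 (0.278 to 0.939), and the 0 peaks of replicates 1 and 2 allow up to 1.62 and 2.31 per 1000. A lower rate in the shorter lists than in replicate 3 was therefore not detectable at these list lengths. On this scale the single input peaks gave higher rates than OTX2, which is opposite to the raw peak numbers. The rate was 4.26 per 1000 peaks of input replicate 3 at Sp8 (0.108 to 23.5) and 7.25 per 1000 peaks of input replicate 1 at Sp9 (0.183 to 39.7). Each rests on 1 peak of a short list, and at Sp8 its interval overlaps those of OTX2 replicates 1 and 3, as it does that of replicate 3 at Sp9. These intervals and limits cover counting error only.

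At Sp8, 1 region was found in more than 1 OTX2 library. It lay on chromosome 12 from 119897474 to 119900659 (mm9), 186 kb from the gene position on the side of lower coordinates. Replicate 3 ranked it 1225 of 22325, and replicate 1 ranked its peak 1116 of 1848 (percentile 60.4, where low values are better-ranked). Replicate 2 had no peak there. The replicate 1 peak, from 119897845 to 119897972, was 128 bp wide and began 371 bp inside the replicate 3 peak of 3186 bp. Its centre lay 1.16 kb from the centre of the wide peak. The narrow peak thus sat near 1 edge of the wide one, and with every peak reduced to 200 bp at its centre the overlap was lost. The region rested on replicates 1 and 3, so leaving out either gave 0 regions, as did keeping the better-ranked 50% of each list. No input or IgG peak overlapped the region.

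Across both loci 1 of 25 replicate 3 peaks (4.0%, Clopper-Pearson 95% interval 0.101 to 20.4%) was overlapped in replicate 1 or 2, against 8.83% of all replicate 3 peaks. The locus percentages were 7.69% (0.195 to 36.0%) at Sp8 and 0% of 12 peaks (0 to 26.5%) at Sp9. Both intervals hold the value of the whole list. Sharing went with rank in the whole list, at 64.6% of the best-ranked 10% of replicate 3 and 2.64% of the rest. Of the 25 peaks, 2 were among that best-ranked 10%, both at Sp8, and 1 of these was the shared one. Conversely, 87.9% of all replicate 1 peaks were overlapped in replicate 3, as was the 1 replicate 1 peak at Sp8. Over the genome, 8.61% of merged OTX2 intervals were present in at least 2 libraries without a control peak, and 28.4% of 600 kb windows held at least 1 such region, as the Sp8 window did and the Sp9 window did not.

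Replicate 3 alone gave a dense picture of both loci. Its 13 and 12 peaks compare with a median of 4 per window when the genome was divided into 4399 windows of 600 kb, from the start of each chromosome to its last peak, with unmappable sequence included. At least 13 peaks were found in 7.87% of those windows and at least 12 in 9.82%, while the fullest window held 34. These windows were not centred on genes, so the comparison does not set Sp8 and Sp9 against other gene loci.

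**Figure D2:**
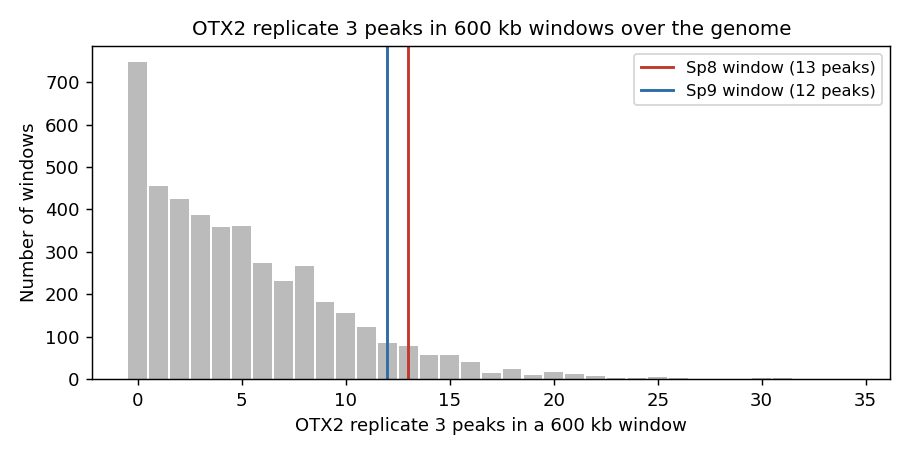
Number of OTX2 replicate 3 peaks in each of 4399 windows of 600 kb (x axis) against the number of windows with that many peaks (y axis, linear). Lines mark the Sp8 window with 13 peaks and the Sp9 window with 12, both above the median of 4.

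The Sp8 peaks of replicate 3 lay mostly on 1 side of the gene. Of 13 peaks, 11 were on the side of lower coordinates, which is the 5′ side for a gene on the plus strand, and 2 were on the other side. The 4 peaks among the best-ranked 25% of the list lay between 126 and 199 kb from the gene position on that 5′ side. A group of 3 held a peak from 119885897 to 119886736 (rank 4880, 840 bp), a peak from 119887849 to 119890091 (rank 2353, 2243 bp) and the shared region. The first of these was 2.65 kb from the second, which was 10.1 kb from the shared region. The fourth well-ranked peak lay 126 kb from the gene position, from 119958018 to 119959632 (rank 1688, 1615 bp), and had a narrower neighbour of rank 12912 at 5.67 kb. Unlike the shared region, these 3 other well-ranked peaks were not overlapped in replicate 1 or 2.

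Close to Sp8, 4 peaks of replicate 3 spanned 19.4 kb, and all 4 were ranked below the 4 distal peaks just described. They lay 11.1, 5.75 and 3.02 kb before the gene position and 8.32 kb after it, with ranks 7015, 11278, 18347 and 9577. Their widths were 1177, 1423, 557 and 1261 bp. The nearest of them to the gene position, from 120081704 to 120082260, was also the last-ranked Sp8 peak of the list (percentile 82.2). None spanned the gene position itself. The remaining 5 peaks, at 282, 225, 121 and 61.6 kb before the position and 206 kb after it, were ranked between 12912 and 17925 and were 468 to 730 bp wide.

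The Sp9 peaks of replicate 3 were evenly divided, with 6 centres on each side of the gene position. This split depends on where the position is set, since centres 4.01 kb before and 0.137 and 2.14 kb after lie close to the gene position. The peak nearest to it, on chromosome 2 from 73106658 to 73107617 (rank 4765, percentile 21.3, 960 bp), spanned the position, with its centre 0.137 kb away. The gene positions are round numbers and were not checked against an mm9 annotation, so this does not place the peak at the Sp9 start site. It was 1 of 4 peaks within 13.4 kb. The other members of this group were a peak of rank 21673 at 4.01 kb before the position, a peak of rank 15295 2.14 kb after it and a peak of rank 6994 at 9.36 kb after it. The last of these, from 73113856 to 73118867, was 5012 bp wide, and 52 of the 22325 replicate 3 peaks (0.233%) were at least as wide. Peaks as wide as that had a median rank of 1604, and 31 of the 52 were overlapped in replicate 1 or 2, while the Sp9 peak was not.

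Far from Sp9, the best-ranked peak lay 125 kb before the gene position, from 72980756 to 72982394 (rank 2961, percentile 13.3, 1639 bp). A peak from 72908048 to 72909024 (rank 5384, 977 bp), 198 kb before the position, was the third Sp9 peak in the best-ranked 25% of the list, beside the one spanning the position. Peaks at 176 and 99.4 kb before the position had ranks 8502 and 7528, and the peak at 288 kb had rank 20382. After the gene, peaks at 83.2, 118 and 260 kb had ranks 13049, 9172 and 13257. These 3 were in the middle of the list, at percentiles from 41.1 to 59.4, and the single far peak after Sp8 was at percentile 72.8.

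**Figure D3:**
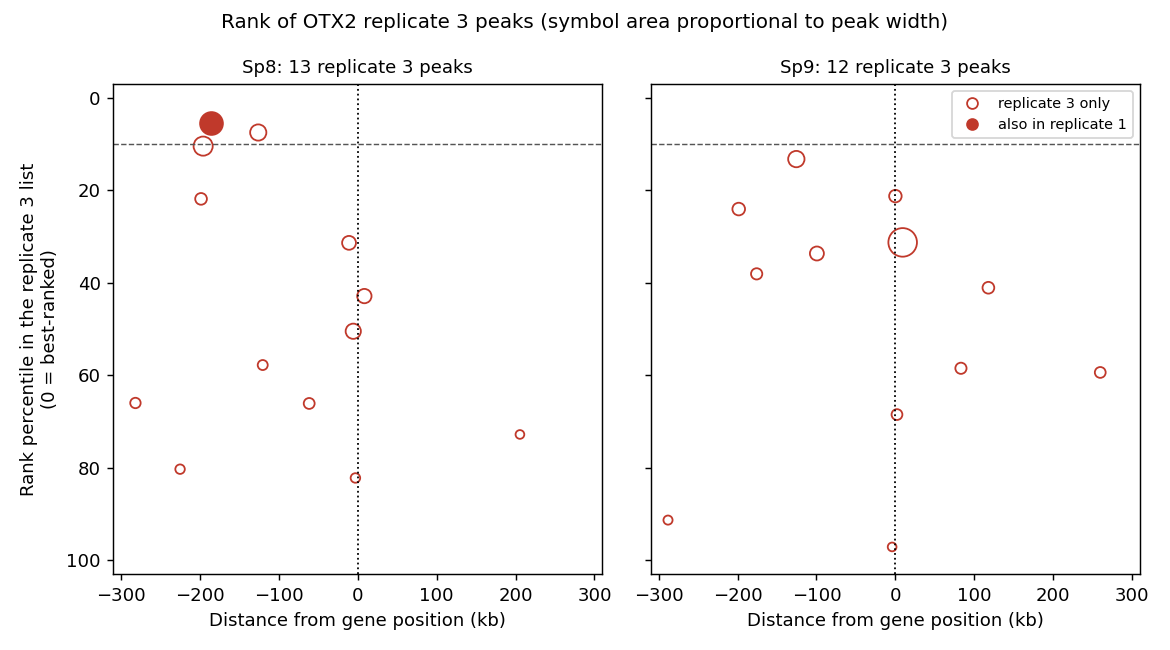
Rank percentile of each OTX2 replicate 3 peak (y axis, best-ranked at the top) against its distance in kb from the Sp8 position (left, 13 peaks) or the Sp9 position (right, 12 peaks). Symbol area is proportional to peak width, the filled symbol is the 1 peak also found in replicate 1, and the dashed line marks the best-ranked 10% of the list, which holds 2 Sp8 peaks and 0 Sp9 peaks.

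Taken over all members, the ranks were close to those of the whole list, whose median percentile is 50 by construction. The median percentile was 50.5 at Sp8 (interquartile range 21.9 to 66.1, 13 peaks) and 39.6 at Sp9 (29.5 to 61.7, 12 peaks). The loci were not tested against each other, since peaks of 1 library are not replicates. Median widths were 840 bp at Sp8 and 811.5 bp at Sp9, against 827 bp in the whole list. Peaks close to another one were common at Sp8, where 9 of 13 (69.2%) had a neighbour within 12 kb, against 4 of 12 (33.3%) at Sp9 and 32.5% of all replicate 3 peaks. The limit of 12 kb was chosen after the positions had been seen, so these values are a description. The Sp8 count includes neighbours at 10.1 and 11.3 kb, close to that limit. The peak density of the windows was not taken into account.

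Each window held 1 control peak, which lay apart from the OTX2 peaks. Over the genome, 476 of 4399 windows of 600 kb (10.8%) held a control peak. The Sp8 window held 1 peak of input replicate 3, ranked 233 of 235 and 144 bp wide, at 92.8 kb after the gene position and 84.5 kb from the nearest OTX2 peak. The Sp9 window held 1 peak of input replicate 1, ranked 113 of 138 and 149 bp wide, at 54.7 kb after the position and 28.6 kb from the nearest OTX2 peak. No member from an OTX2 library overlapped a control peak. The control lists were short, at 138 to 235 peaks, and the share over all OTX2 peaks was not computed. The absence of overlap is therefore not shown to be particular to these loci. The limit of the windows fell in gaps between replicate 3 peaks. The last peak inside was 282 kb from Sp8 (rank 14733) and 288 kb from Sp9 (rank 20382), and the first outside was 391 kb from Sp8 (rank 2445) and 304 kb from Sp9 (rank 7309).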

How the data were processed

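The authors deposited a separate list of peaks for each library, with the start and end of each peak and its rank, per the file headers and columns. BWA, MACS 1.4 and build mm9 are named in the submitters' processing notes, without roles or settings. The threshold, the control set against each library and the quantity ranked were not stated in the labels or headers. Sequencing depth is unknown. Groups and replicate numbers came from the sample titles. An overlap was at least 1 shared bp, and regions were groups of overlapping OTX2 peaks from at least 2 libraries with no input or IgG peak. Overlap code was tested on simulated lists and checked against bedtools 2.31.1. Python 3.11.15, numpy 2.4.6 and scipy 1.17.1 were used. Coordinates are 1-based, and the gene table and promoters (GRCm38.p6) were used for names, gene order and sequence. The members, lists and tests were chosen with earlier results of these data known. Every region in at least 2 libraries was named in full. Peaks of 1 library were named in full when among the best-ranked 25% of their list or nearest to a gene position, and others are given by rank and distance. The widest Sp9 peak and the peaks close to each gene were singled out after their values were seen. A planned comparison of Sp family proteins is not analysed here. Alternatives changed the window, the overlap, the lists, the background and the libraries.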

Additional observations from a re-analysis of the deposited data

How the results depend on the processing

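The difference in peak number between OTX2 and input kept its side of the threshold of 0.05 in every alternative run, but these designs reach no p under 0.10 except against input and IgG together, so that says little about stability. Against those 5 libraries the difference was 4.47 at Sp8 (exact permutation test, p = 0.39) and 3.80 at Sp9 (p = 0.75). At Sp9, ties among libraries with 0 peaks raise the smallest p that can be reached further. Leaving out each replicate gave 0.500 to 6.50 at Sp8 and -0.500 to 6.00 at Sp9, where the direction turned without replicate 3. With OTX2 lists cut to the length of the shortest, the difference fell to 0.333 at Sp8 and turned to -0.333 at Sp9, where no OTX2 peak was left, and within 100 kb it was 1.33 and 1.67. As a replicate block, pairing by replicate number left 4.33 at Sp8 (exact sign-flip test, p = 0.50) and 3.67 at Sp9 (p = 1.00). In general, 3 pairs allow no p under 0.25. At each locus the pair of replicate 2 differed by 0 peaks, which raises that limit to the 0.50 found at Sp8. The replicate numbers are not stated to mark shared chromatin. The 1 region at Sp8 became 0 within 100 kb, with the better-ranked 50% of each list, in 200 bp windows and when all 3 libraries were required, 0 to 1 with a replicate left out, and 3 within 500 kb. The shared percentage at Sp8 of 7.69% became 0% within 100 kb, with the better-ranked 50% and in 200 bp windows, 0 to 7.69% with a replicate left out, 20.0% (3 of 15 peaks) within 500 kb, and 100% (1 of 1 peak) with lists cut to the shortest. At Sp9 the region count and the shared percentage stayed at 0 in every alternative run; no percentage could be formed there with lists cut to the shortest. Moving the gene positions by 5 kb, added after seeing the data, changed none of these region counts or percentages. Median rank percentiles ranged from 42.9 to 50.5 at Sp8 and from 38.1 to 49.7 at Sp9 across window settings. Depth is unknown and limits every count of 0 in replicates 1 and 2.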

Other observations

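The nearest regions present in all 3 OTX2 libraries lay beyond both windows. Around Sp8, a region on chromosome 12 from 120474612 to 120478126 (mm9), 391 kb after the gene position, was ranked 927 in replicate 1 and 2445 in replicate 3, and a region in all 3 libraries, 487 kb after the position from 120571538 to 120572921, was ranked 1342, 457 and 833 in replicates 1, 2 and 3. Around Sp9, the nearest region in at least 2 libraries lay 555 kb before the gene position, from 72551558 to 72552460, ranked 1501 in replicate 1 and 14023 in replicate 3. The nearest in all 3 libraries lay 596 kb before it and was ranked 632, 323 and 869. Whether these regions belong to either gene was not tested.

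Both genes have another Sp family member nearby in the gene order of GRCm38. Sp4 is the protein-coding gene directly before Sp8, and Abcb5, which encodes an ABC transporter, is the one directly after it. Sp9 lies between Ola1 and Cir1, and Sp3 is the next protein-coding gene before Ola1. Sp3 and Sp4 are glutamine-rich relatives of Sp1, with Sp3 broadly expressed and Sp4 known mainly from neural tissue. Where the peaks lie relative to these neighbours was not analysed here. Of 9 Sp family genes (Sp1 to Sp9), all but Sp6 and Sp7 had promoter windows in the table. TAATCC was found in a window of Sp1 and in 1 of 3 windows of Sp8, TAATTA in 1 window of Sp8, and GGGCGG in at least 1 window of Sp1, Sp2, Sp3, Sp4, Sp8 and Sp9 and in none of Sp5.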
